A study of Mus musculus with 138 samples.

Results

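The libraries described here are the uninjected control embryos of a study of SMARCA5, a chromatin remodelling ATPase, in mouse embryos at the 2-cell stage. They were chosen as the libraries labelled as controls without injection in the antibody degradation (TrimAway) experiment, replicates 1 and 3, that held at least 100000 gene counts, which kept 15 of 16 such libraries and 15 of the 138 libraries of the series. They are 10 libraries of replicate 1 and 5 of replicate 3, not injected by their titles, and the design text names wild type embryos for this experiment. It calls each replicate a different pool of embryos and a technical one, so p-values here measure the spread between these libraries. Strain, hours of culture of the uninjected embryos and cells per well are not given in the labels, and each well is taken as 1 embryo. Fewer cells in a well and less RNA per cell cannot be told apart.

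Polyadenylated RNA was sequenced with scNMT-seq, in which the DNA of each sample is kept for separate libraries. The spread between embryos was compared with 20 libraries of embryos injected with control IgG in the same experiment. That IgG was given without Trim21 in replicate 1 (10 libraries) and with Trim21 in replicate 3 (10 libraries), so Trim21 and replicate cannot be told apart. A further 22 libraries labelled Smarca5 +/+ came from the separate maternal deletion experiment. The titles of the Smarca5 +/+ libraries also name matKO females, so the mothers' genotype is not clear from the labels. Embryos are named by their plate well.

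A mouse embryo starts on RNA stored by the oocyte, destroys much of it after fertilisation, and transcribes its own genome in a major wave at the 2-cell stage. Genes such as the Zscan4 cluster, the Tcstv genes and Zfp352 are transcribed briefly in this window, while oocyte genes such as the zona pellucida genes, Bmp15 and the Omt2 and Tcl1 families leave transcripts that decay. Embryos that inherit a paternal X chromosome begin to transcribe Xist, the RNA of X inactivation, from it at this time, and embryos that inherit a Y transcribe Y-linked genes.

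Total gene counts ran from 365597 (D09) to 2351642 (F08) in replicate 1 and from 746111 to 967761 in replicate 3. Replicate 1 lay in plate columns 8 and 9 and replicate 3 in column 4, so pool and plate column cannot be told apart. No pair of embryos within a replicate was alike to sampling noise, since the lowest chi-square per degree of freedom over genes was 9.28 among 55 pairs. Across genes, Pearson's r of log2 levels in these pairs had a median of 0.836 and a range of 0.602 to 0.874. For these 15 libraries, the 95% Wilson interval of a share of counts was at most 0.204 percentage points wide, which covers counting error only.

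Some libraries stood apart. On the first principal component of 5892 genes with the replicate means removed (30.8% of the variance), F04 scored 80.3 and the other embryos between -37.9 and 35.5. On the second (13.3%), H04 scored 51.5 and G04 -39.6, and on the third (10.9%) D09, the shallowest library, scored 49.5. H04 also held transcripts of leukocytes, described below. Counts of varying genes are therefore given with and without these wells.

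Markers of the 2-cell stage were present in the embryos. Of 32 genes on a list of 2-cell stage transcripts, 25 had more than 3 counts in at least 8 of the 15 embryos, and the list's summed level was 1776 to 4517 CPM, the count of a gene scaled to a common library total. Obox3 was above 3 counts in 15 embryos and Zscan4d in 14. Of 24 cumulus and granulosa markers, 13 never passed 3 counts, and Ptx3, Inha, Fshr, Lhcgr and Pgr were at 0 in every embryo. Tnfaip6 and Star passed 3 counts in 8 embryos each and Vim in 7, and Ptgs2 reached 69.9 CPM in H04. The list summed to 1.03 CPM (F04) to 159 CPM (H04). Of 11 sperm and spermatid markers, 6 never passed 3 counts and the protamine gene Prm1 was at 0 in every embryo. Odf2 and Ldhc of that list were above 3 counts in all 15. Cdx2, a trophectoderm factor of later embryos, never passed 3 counts. Still, 4 of 11 trophectoderm markers and 6 of 11 inner cell mass markers passed 3 counts in at least 8 embryos.

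The mitochondrial genome gave the most abundant transcripts. Its 13 protein-coding genes took 13.4% ± 6.84 of the counts (SD, n = 15), with a lowest share of 5.74% (F08), a median of 10.6% and a highest share of 30.2% (H04). In replicate 3 the shares were 21.6% in D04, 13.2% in E04, 8.21% in F04, 21.97% in G04 and 30.2% in H04. The spread between embryos was therefore more than 5-fold, and the replicates overlapped.

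By CPM, mt-Co1 led with 37460 ± 17880 CPM (SD, n = 15), from 15800 in F08 to 81860 in H04. It was followed by mt-Nd1 at 32220 CPM, mt-Cytb at 25020, mt-Nd5 at 16740, mt-Nd2 at 11420 and mt-Nd4 at 8035 CPM on average. Most mitochondrial mRNAs are cut from a shared precursor transcript, yet their counted levels were far from equal. The annotated spans of mt-Atp8 and mt-Co3 overlap mt-Atp6. How reads that match several places or genes were counted is not given in the sources used here, so these counts may not show mRNA levels. In TMM-scaled CPM, which adds the library scaling of edgeR and is used for single genes from here on, the median embryo had 31500 for mt-Co1 but 227 for mt-Co2, 145 for mt-Co3 and 118 for mt-Atp8.

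Omt2b, an oocyte gene, led the nuclear transcripts. It reached 4021 ± 2157 CPM (SD, n = 15), with 1446 in F04 and 9717 in G04, and was followed by Ccdc6 (3285 CPM), Spin1 (3116), a histone reader of oocytes and embryos, and Omt2a (3040 ± 1299), the neighbour of Omt2b. The 20 genes with the highest mean CPM also held Mdm4 (1990), a p53 inhibitor, and Khdc1b (1964). Zbed3 (1933), a gene of the subcortical maternal complex, Oog3 (1777), Rif1 (1683), Gpbp1 (1664), Esco1 (1461), Bmi1 (1454), Wtap (1426) and Dppa3 (1384) completed the list.

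Per length of exon the order shifted towards short transcripts. In TPM, the count per exon length scaled to a common total, mt-Nd1 led with 90690 ± 46190 (SD, n = 15), ahead of mt-Co1 at 66420 and mt-Cytb at 59770. The nuclear leaders were Omt2b at 7343 TPM, Omt2a at 5869, Dppa3, a maternal protector of DNA methylation, at 4585 and Cks2, a partner of cyclin-dependent kinases, at 3611. Rplp1, a protein of the ribosomal stalk, had 2765 TPM, the metallothionein Mt2 had 2390 and the oocyte-secreted protein gene Oosp1 had 2193.

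By gene class, 98.3% ± 0.169 of the counts lay in protein-coding genes, 0.394% ± 0.0725 in lincRNA genes and 0.196% ± 0.0630 in processed pseudogenes (SD, n = 15). A list of 75 oocyte genes took 2.101% ± 0.714, from 0.805% in F04 to 3.37% in G04. The 87 ribosomal protein genes took 1.48% ± 0.597, from 0.760% in G04 to 2.81% in F04. F04 and G04 thus held opposite ends of both classes.

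Translation factors took 1.20% ± 0.272 of the counts, G2 and M phase genes 0.733% ± 0.199, nucleolar and ribosome assembly genes 0.662% ± 0.242, nuclear-encoded respiratory chain genes 0.648% ± 0.102 and splicing genes 0.643% ± 0.127 (SD, n = 15). The 2-cell list took 0.276% ± 0.0845, with 0.178% in B09 and 0.452% in E04. Replication-dependent histone genes, whose transcripts mostly lack a poly(A) tail, took 0.00403% ± 0.00367 over 67 genes. In TPM, the summed level was 36860 ± 12630 for the oocyte list and 28530 ± 12800 for ribosomal proteins, against 4334 ± 1408 for the 2-cell list and 303300 ± 118100 for mitochondrial mRNA.

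The 10 most counted genes of an embryo took 14.5% ± 6.82 of its counts, with 6.56% in F08 and 30.8% in H04. It took 823 ± 206 genes to hold 50% of the counts, with 373 in H04 and 1056 in E04. H04 was the most concentrated library and also the one with the highest mitochondrial share.

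**Figure D1:**
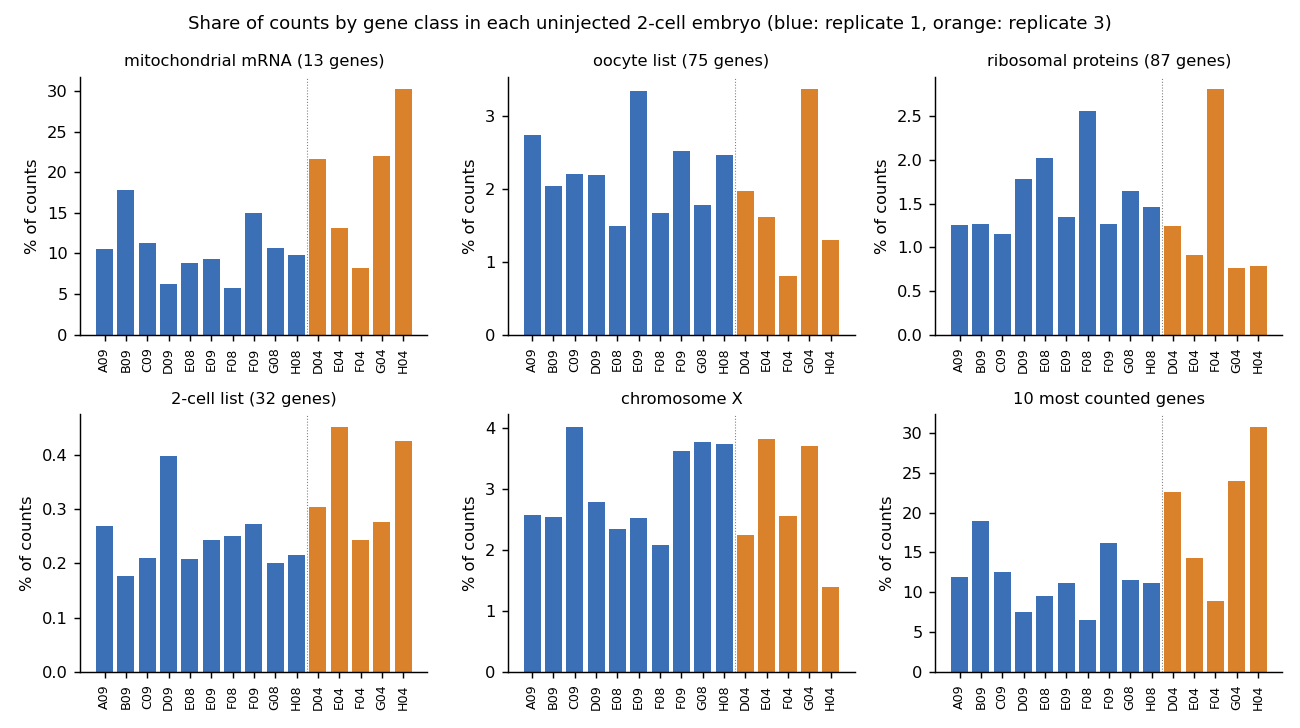
Share of counts (%, axes from 0) held by 5 gene classes and by the 10 most counted genes in each of the 15 uninjected embryos, 1 bar per embryo. F04 has the lowest oocyte share (0.805%) and the highest ribosomal protein share (2.81%), and H04 the highest mitochondrial share (30.2%).

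To find genes that spread between embryos more than genes of like abundance, the negative binomial deviance of each gene around its replicate mean was set against the dispersion trend (edgeR goodness of fit, 13 residual degrees of freedom). Of 10491 tested genes, 557 were called at a Benjamini-Hochberg adjusted p under 0.05, or 5.31%, and 1568 had an unadjusted p under 0.05. Counting noise alone was exceeded by 10472 genes, which does not separate differences between embryos from those of capture and amplification between libraries. The common biological coefficient of variation was 0.538, and the trend fell from 0.902 for rare to 0.348 for abundant genes. A call is therefore a statement about a gene relative to this general spread.

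Calls were unevenly placed. The X chromosome had 88 of 357 tested genes called (24.6%), the Y 6 of 6 and the mitochondrial genome 5 of 13, against 2.29% to 8.22% of the genes of each autosome. Without H04 the count was 473 genes in all and 67 on the X, and without F04 it was 495 and 106. Without F04, G04 and H04 together, an alternative chosen after the data had been seen, 298 genes were called, 241 of them among the 557, and 66 lay on the X and 8 on the 2-cell list.

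By list, 15 of 25 tested 2-cell genes were called and 14 of 70 oocyte genes, beside the background of 5.31%. Other lists with several calls were genes of the p53 response and stress with 4 of 18 and heat shock genes with 3 of 20. Transcription factors of genome activation had 3 of 22. Translation factors were nearer the background with 5 of 62 (8.06%), and the Y-linked Eif2s3y and the X-linked Eif1ax were among these calls. Of the 3 tested cumulus and granulosa genes, 2 were called, Vim and Star. Below the background were ribosomal protein genes with 1 of 87, proteasome genes with 1 of 42 and splicing genes with 1 of 45, and nucleolar genes were near it with 2 of 34. The median deviance per degree of freedom, which has a median of 0.913 over all tested genes, was 2.90 for the 2-cell list, 1.39 for the oocyte list and 1.21 for ribosomal proteins.

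In several lists edgeR called 0 genes. These were the 24 G2 and M phase genes, of which 5 had an unadjusted p under 0.05, the 21 mRNA decay genes (2), the 81 respiratory chain genes (4), the 16 tRNA synthetase genes (0), the 6 tested inner cell mass genes (2) and the 2 tested sperm genes (0). DESeq2, which marks genes with outlying dispersions, marked 150 genes, each of them among the 557 of edgeR. Its 0 calls in these lists were fixed by that overlap and add no support. Over all 10491 tested genes, 5.31% were called by edgeR and 1568 had an unadjusted p under 0.05. At that rate of calls the shorter lists could hold 0.

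**Figure D2:**
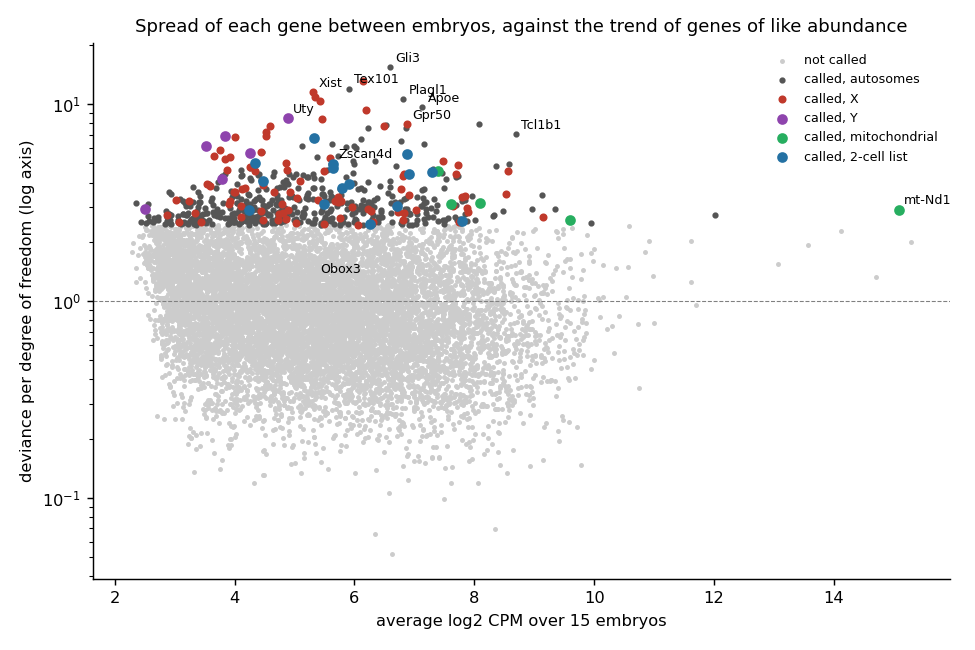
Spread of 10491 genes between the 15 embryos, as deviance per degree of freedom (log axis) against average log2 CPM, with each gene 1 point. Called genes (557) lie above the grey points, with X, Y, mitochondrial and 2-cell list genes in colour, and Gli3 stands highest at 15.5 while Obox3 lies among the grey points at 1.31.

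Zscan4d, a zinc finger gene of the Zscan4 cluster on chromosome 7, varied strongly. Its TMM-scaled CPM ran from 0 in F04 over a median of 20.9 to 200.3 in H04, and in replicate 3 it was 79.9 in D04, 137 in E04, 0 in F04, 49.0 in G04 and 200.3 in H04. In replicate 1, D09 with 79.1 and F09 with 78.6 stood above the other 8 embryos, which lay between 5.78 and 29.4. A count of 0 in F04 allows up to 3.10 CPM before scaling. Its deviance per degree of freedom was 4.98 (edgeR goodness of fit, adjusted p = 1.51e-06), and 3.58 to 5.46 when each embryo was left out in turn. Zscan4b, Zscan4c, Zscan4e and Zscan4f are near-identical copies, and how reads that match several copies were counted is not given in the sources used here.

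Obox3, a homeobox gene of the Obox cluster, was steadier. It ran from 13.5 in E09 over a median of 31.2 to 127 CPM in D09 and was above 0 in every embryo. In replicate 3 it was 71.0 in D04, 44.0 in E04, 16.1 in F04, 24.5 in G04 and 30.9 in H04. Its deviance per degree of freedom was 1.31 (edgeR goodness of fit, adjusted p = 0.714), so its spread did not pass the test. Its annotated span overlaps Obox1. The embryos with the most Obox3 and the most Zscan4d differed, since D09 led for the first and H04 for the second.

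The other called 2-cell genes included Zfp352, a zinc finger gene with 20.4 CPM in F08, a median of 129 and 554 in H04 (deviance 4.51 per degree of freedom, adjusted p = 1.35e-05). Gm2016 of a chromosome 12 cluster had 3.01 CPM in F04, a median of 42.5 and 459 in D04. Gm4340 was at 0 in 6 embryos, among them F04, and reached 246 in E04 and H04. Tcstv3 reached 346 CPM in E04, against a median of 35.3, and its neighbour Tcstv1 reached 343 in the same embryo. Without E04 the deviance of Tcstv3 was 1.56 per degree of freedom and the call was lost, and that of Tcstv1 was lost in 6 of the 15 fits that leave out 1 embryo. Of the 15 called 2-cell genes, 8 were called in every such fit. Gm8300, Gm13078, Gm2022, Gm5662, Arg2, Tmem92, Pramef6, Gm13119 and B020004J07Rik were also called. F04 or F08 was the lowest embryo for Zfp352, Arg2, Gm2016, Gm5662 and Gm13078, and H04 the highest for Zfp352, Arg2, Tmem92, Gm13078 and Gm8300.

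**Figure D3:**
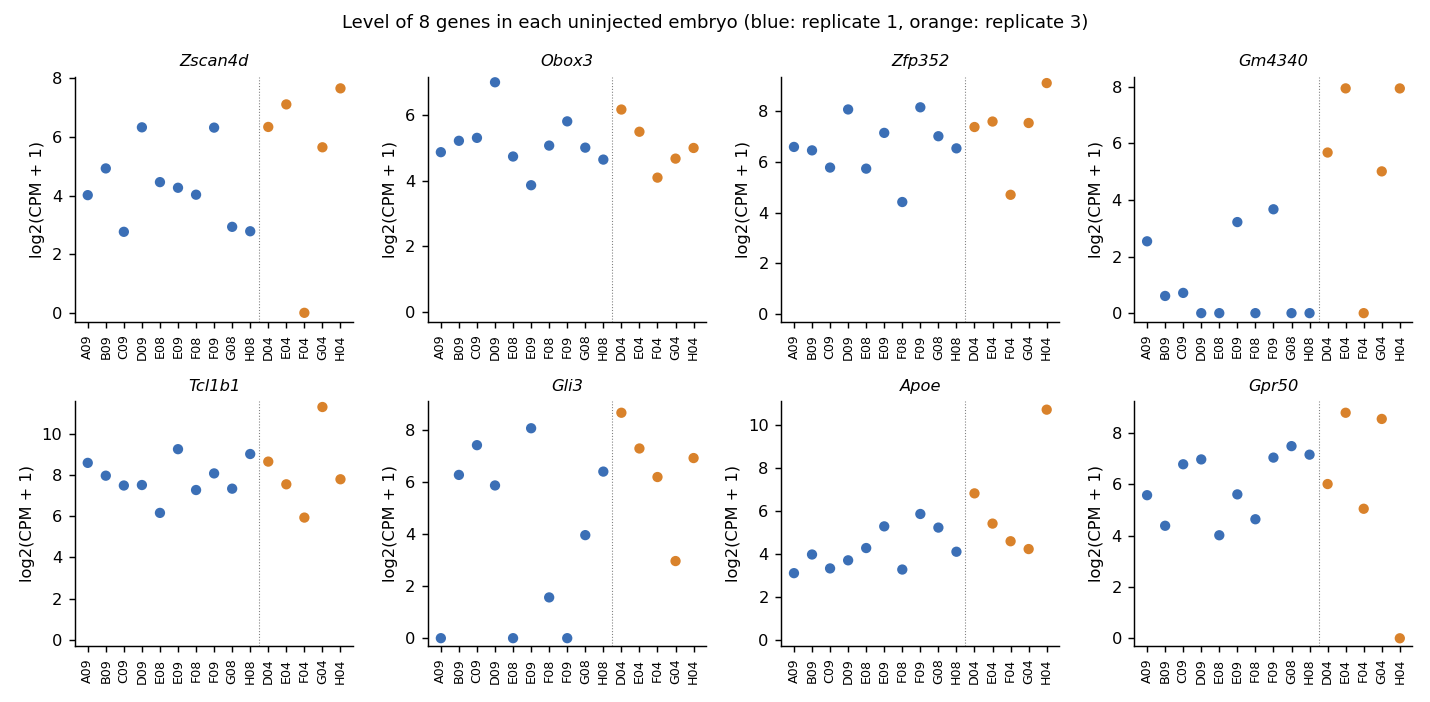
Level of 8 genes in each embryo as log2(CPM + 1), TMM-scaled, with the 10 embryos of replicate 1 on the left and the 5 of replicate 3 on the right of each panel. Zscan4d and Gm4340 are at 0 in F04, Obox3 has no embryo at 0, and Apoe is highest in H04 and Tcl1b1 in G04.

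For a view of the sequence before these 2-cell genes, the 200 bases upstream of the RefSeq start (GRCm38.p6) are shown, 5′ to 3′ on the gene's strand. For Zscan4d (chr7:11166149-11166348, minus strand) the capitals mark the letters TATAA, which begin 65 bases before the start. For Obox3 (chr7:15639778-15639977, minus strand) they mark GGATTA, and for Zfp352 (chr4:90218620-90218819, plus strand) TAATCC, the same letters on the other strand, which occur there 7 times. TAATCC is the core bound by OTX and OBOX type homeodomains. In lower case, TATAA also occurs 2 times in the Obox3 window and 1 time in that of Zfp352. Its last copy begins 28 bases before the start in both. These distances hold for the RefSeq start only. By the gene positions deposited with the counts, the 5′ ends of Zscan4d (11166182) and Obox3 (15639902) lie inside the windows shown.
Zscan4d: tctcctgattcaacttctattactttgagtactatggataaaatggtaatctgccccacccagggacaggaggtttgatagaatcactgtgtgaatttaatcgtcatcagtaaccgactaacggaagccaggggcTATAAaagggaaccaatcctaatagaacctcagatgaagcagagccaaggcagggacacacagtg
Obox3: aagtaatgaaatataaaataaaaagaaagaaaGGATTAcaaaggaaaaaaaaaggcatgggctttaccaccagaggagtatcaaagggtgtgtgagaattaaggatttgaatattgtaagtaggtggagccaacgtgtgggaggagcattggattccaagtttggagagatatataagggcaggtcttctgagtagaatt
Zfp352: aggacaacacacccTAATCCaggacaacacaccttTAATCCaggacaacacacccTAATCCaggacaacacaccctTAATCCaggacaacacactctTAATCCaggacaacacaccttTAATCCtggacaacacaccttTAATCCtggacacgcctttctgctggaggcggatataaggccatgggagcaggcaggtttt
Over 32851 such windows, 18.5% held TATAA and 4.91% GGATTA, both strands searched. These matches describe the letters only.

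Among oocyte genes the Tcl1b family of chromosome 12 varied most. Tcl1b1 ran from 60.2 CPM in F04 over a median of 221 to 2533 in G04 (deviance 7.02 per degree of freedom, edgeR goodness of fit, adjusted p = 4.14e-11). In replicate 3 it was 402 in D04, 187 in E04, 60.2 in F04, 2533 in G04 and 221 in H04. Tcl1b3 ran from 26.1 to 1496 CPM with a median of 149.8, Tcl1b4 from 7.03 to 724, Tcl1b5 from 3.01 to 438 and Tcl1b2 from 15.1 to 723. In each of these 5 genes F04 was the lowest and G04 the highest embryo, and in replicate 1 E09 was the highest. The deviance of Tcl1b1 without G04 was 3.46 per degree of freedom and the gene was still called. The family members are similar, and reads shared between them may have been split.

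The upstream windows of the 5 Tcl1b genes (RefSeq, GRCm38.p6, plus strand) were searched for their longest common run, which has 25 bases. It is shown in capitals for Tcl1b1 (chr12:105159504-105159703) and Tcl1b3 (chr12:105190845-105191044).
Tcl1b1: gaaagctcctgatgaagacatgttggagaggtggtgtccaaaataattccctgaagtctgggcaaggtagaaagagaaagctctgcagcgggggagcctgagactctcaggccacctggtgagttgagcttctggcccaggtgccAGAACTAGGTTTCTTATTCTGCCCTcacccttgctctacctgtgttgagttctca
Tcl1b3: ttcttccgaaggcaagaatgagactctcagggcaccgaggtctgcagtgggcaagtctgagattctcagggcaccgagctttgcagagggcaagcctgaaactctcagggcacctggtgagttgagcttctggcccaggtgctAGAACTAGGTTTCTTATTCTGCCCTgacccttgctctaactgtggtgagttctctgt
This run was found in 5 of 32851 windows (0.0152%), those of Tcl1b1, Tcl1b2, Tcl1b3, Tcl1b4 and Tcl1b5. Its presence in these 5 was fixed by the way it was chosen, and a link to their levels was not tested.

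Other called oocyte genes were Omt2b (1404 to 11340 TMM-scaled CPM, deviance 2.73 per degree of freedom) and Tcl1 itself (86.3 in F04, 1168 in E09). Bmp15, an X-linked growth factor of the oocyte, ran from 173 in F04 to 959 in E09, and Wee2, a kinase that holds the oocyte in meiosis, from 30.1 in F04 to 558 in E09. Zp2 of the egg coat ran from 2.40 in D09 to 141 in D04 and Nlrp9a from 7.46 in F08 to 149.8 in E09. Zp3, Gdf9, Nlrp5 and Zar1, named here after their values were seen, did not pass the test, with deviances of 0.90, 1.33, 1.29 and 1.78 per degree of freedom. F04 was thus lowest for several, but not all, of the called members.

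The X and Y chromosomes divided the embryos. Xist, with 0 counts in 7 embryos and up to 154 CPM in G04, was among the most varying genes (deviance 11.5 per degree of freedom, edgeR goodness of fit, adjusted p = 5.73e-22). Its antisense partner Tsix overlaps it, and use of strand in the counting is not given in the sources used here. More than 3 counts of Xist and at most 3 over 7 Y-linked genes were found in 6 embryos, namely C09, F09, G08, H08, E04 and G04. Y counts without Xist were found in 7 embryos, namely A09, B09, D09, E08, E09, F08 and F04.

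The share of counts on the X followed the same division. It was 3.63% to 4.02% in the 6 embryos with Xist alone and 2.09% to 2.79% in the 7 with Y counts alone, and these ranges do not overlap. The 7 Y-linked genes summed to 57.4 CPM (D09) to 194 CPM (E09) in the latter. Uty, a histone demethylase gene, was called (deviance 8.50, adjusted p = 1.60e-14), as were Usp9y, Zfy1, Zfy2, Eif2s3y and Kdm5d. Since these embryos were sorted by their own transcripts, the ranges are given with no test.

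D04 and H04 held both kinds of transcript. D04 had 75 counts of Xist and 100 over the Y genes with 2.24% of counts on the X, and H04 had 45 and 170 with 1.39%. The same rule gave 10 embryos with Xist alone, 9 with Y alone and 1 with both among the 20 IgG libraries, with X shares of 3.31% to 4.62%, 2.16% to 3.21% and 2.46%. Among the 22 Smarca5 +/+ libraries it gave 7, 10 and 1, and 4 with neither.

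Other X-linked genes stood among the 20 with the highest deviance. These were 1700013H16Rik (13.1 per degree of freedom), Bex1 (10.9), Gm364 (10.4), Mum1l1 (9.40), Tsga8 (8.45), Gpr50 (7.89) and Gm9 (7.79). Bex1 was at 0 in 6 embryos and highest in E04 at 215 CPM, where Gpr50, a melatonin-related receptor, was also highest at 442. Gm364 exceeded 50 CPM in C09, F09, G08, H08, E04 and G04 and stayed at 14.7 or lower in the other 9. Those 6 embryos are the ones with Xist alone. 1700013H16Rik did not follow that division, with 58.7 CPM in E08, which had Y counts alone, and 50.4 in G04.

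H04 lacked a large part of the X transcripts of the other embryos. Of 189 X-linked genes whose average log2 CPM reached 5, 67 (35.4%) were 4-fold or more below the median embryo in H04, against 0% to 7.94% in the other 14 embryos. For autosomal genes the share in H04 was 2.99%, within the 0.211% to 4.85% of the others. In H04, 22 of the 189 X genes had 0 counts, against 0 to 8 elsewhere. Dkc1, the pseudouridine synthase of the telomerase and snoRNA complexes, was at 1.63 CPM in H04 and at 231 or more in every other embryo. Bcap31 was at 0 in H04 and at 145 or more elsewhere, and Vbp1, a prefoldin subunit, at 0 and at 60.5 or more. On the log2 scale, the median X gene of H04 lay at -1.14 against the median embryo, while the autosomal median was -0.05. By single autosome the median in H04 ran from -0.405 on chromosome 7 to 0.156 on chromosome 4. Chromosomes 3 and 2 lay at -0.355 and -0.314, so lower levels were not confined to the X.

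**Figure D4:**
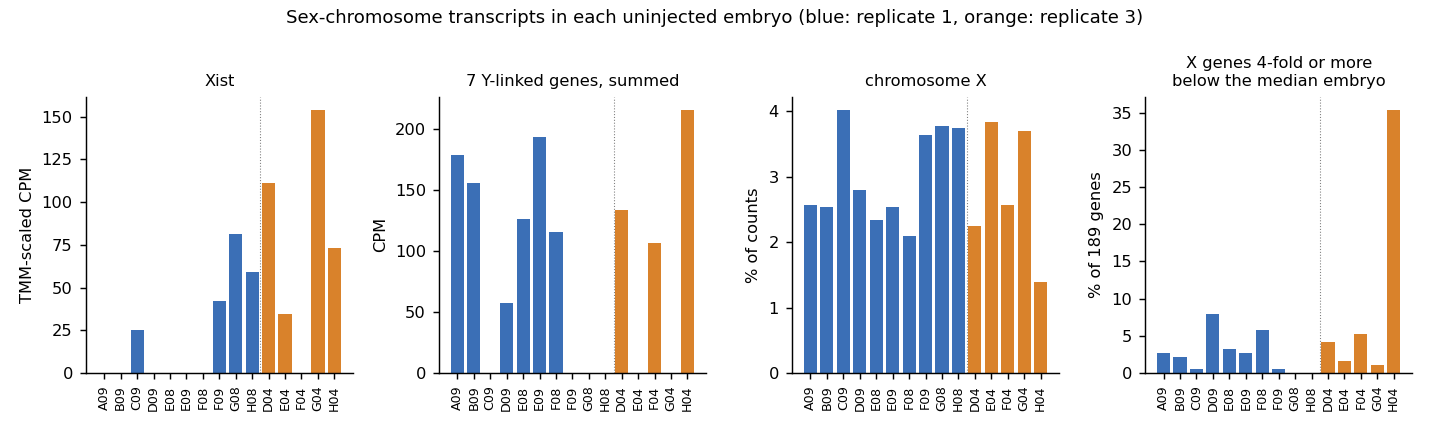
Xist (TMM-scaled CPM), the sum of 7 Y-linked genes (CPM), the share of counts on the X (%) and the share of 189 X-linked genes at least 4-fold below the median embryo (%), 1 bar per embryo with axes from 0. D04 and H04 show both Xist and Y counts, and H04 stands apart in the last panel at 35.4%.

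H04 also held genes of macrophages and other leukocytes, named here after their values were seen. In H04, 16 genes had at least 20 counts while every other embryo had at most 3, against 0 to 5 such genes in the other embryos. They included Tyrobp with 72 counts, an adaptor of myeloid receptors, Mpeg1 with 71, Ms4a7 with 64, the complement subunit C1qc with 41, Cd53 with 38, Emr1 with 38 and Fcer1g with 23. Lyz2, the lysozyme of macrophages, had 978 counts in H04 and at most 15 elsewhere, Apoe 1045 and at most 107, Ctss 156 and at most 22, and Ptprc, the pan-leukocyte marker, 15 and 0. Cd68 had 37 counts in H04 and up to 26 elsewhere, and Csf1r, the receptor of a macrophage growth factor, had 30 in H04 and up to 45 elsewhere, so it was not highest there. The summed blood list reached 1324 CPM in H04 against a median of 13.9. Apoe was among the 20 most varying genes (deviance 9.65 per degree of freedom), and without H04 its deviance was 1.71 and the call was lost. Whether the leukocyte transcripts, the high mitochondrial share and the X values of H04 are linked was not tested.

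The remaining genes of highest deviance were autosomal. Gli3, a transcription factor of hedgehog signalling, had the highest value, 15.5 per degree of freedom (edgeR goodness of fit, adjusted p = 9.48e-32). It was at 0 in A09, E08 and F09, below 15 in F08, G08 and G04, and between 57.6 and 405 CPM in the other 9 embryos. In replicate 3 it was 405 in D04, 156 in E04, 72.3 in F04, 6.81 in G04 and 121 in H04. Embryos without a detected transcript thus sat beside embryos with an abundant one within the same pool.

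Tex101, a surface protein gene of germ cells, was at 0 in C09, H08 and F04 and reached 226 CPM in F09 (deviance 11.98 per degree of freedom). Plagl1, an imprinted zinc finger gene, ran from 0 in F04 over a median of 30.9 to 689 in H04 (10.6). Gm7221 was at 0 in G04 and H04 and reached 242 in B09 (7.83). AF067061, of the Tcstv region on chromosome 13, had a median of 15.2 and 617 CPM in E04, and Cd24a, a surface sialoglycoprotein, ran from 5.02 in F04 to 439 in E04. Of the 20 genes of highest deviance, 13 were at 0 in at least 1 embryo, and 19 were called in each of the 15 fits that leave out 1 embryo.

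At the quiet end of the abundant genes stood Gle1, an mRNA export factor, at 235 to 398 CPM (median 331) over the 15 embryos. Dynll1, a dynein light chain, ran from 376 to 588 CPM and Brd2, a bromodomain protein, from 271 to 406. Pum2, a translational repressor that binds mRNA, ran from 305 to 505, Rsl1d1 of the nucleolus from 396 to 719 and Mll3, a histone methyltransferase, from 567 to 1177. Phf3, Hic2, Usp37 and Atad2b completed the 10 of lowest dispersion. In each of these 10 genes the highest embryo had less than 3 times the level of the lowest.

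Fitted alone, the 10 embryos of replicate 1 gave 290 called genes of 10491 (2.76%) and the 5 of replicate 3 gave 108 (1.03%). Both held 44 genes, or 15.2% of the first list and 40.7% of the second, so these genes varied in each of 2 separate pools. They included Zscan4d, Gm4340, Gm13078 and Pramef6 of the 2-cell list, all 5 Tcl1b genes, Gli3, Tex101, Plagl1, Cd24a and AF067061. Another 14 were X-linked, with Xist, Bex1, Gpr50, Vbp1 and Fmr1 among them, and 4 were Y-linked. H2-K1 and H2-Q6 of the major histocompatibility complex, the gap junction gene Gja1 and Sparc of the extracellular matrix also varied in both.

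The same test was run in embryos that had not contributed to these calls. In 20 IgG-injected embryos it called 748 of 9280 genes (8.06%), and in 22 Smarca5 +/+ embryos 610 of 6993 (8.72%). Of the 462 uninjected calls that were tested in both sets, 224 were called in the IgG embryos, or 48.5%, where 7.66% of all shared genes were called, and this is 31.8% of the IgG calls. For the Smarca5 +/+ embryos it was 121 of 290, or 41.7%, beside 8.67%, and 20% of their own calls. On the X, 89 of 332 genes were called in the IgG embryos (26.8%) and 37 of 220 in the Smarca5 +/+ embryos (16.8%).

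Of the 20 uninjected genes of highest deviance, 17 of the 18 tested in the IgG embryos were called there, and 13 of the 13 tested in the Smarca5 +/+ embryos. The exception was Apoe, with a deviance of 1.06 in the IgG embryos. Of the 15 called 2-cell genes, 13 of 15 were called in IgG embryos and 11 of 13 in Smarca5 +/+ embryos, with Zscan4d at 4.58 and 2.78 per degree of freedom. Obox3 was called in neither, at 0.97 and 0.90.

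To see which genes varied together, 278 called genes whose average log2 CPM reached 5 were clustered on the correlation of their deviations from the replicate mean of log2(CPM + 1). At r of at least 0.5, 7 groups of 10 or more genes held 198 of them, while the median r over all pairs was 0.05. Groups are formed from the same values, so their correlations are a description, and all points share the scaling of the 15 libraries. A mean deviation below is on the log2(CPM + 1) scale.

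**Figure D5:**
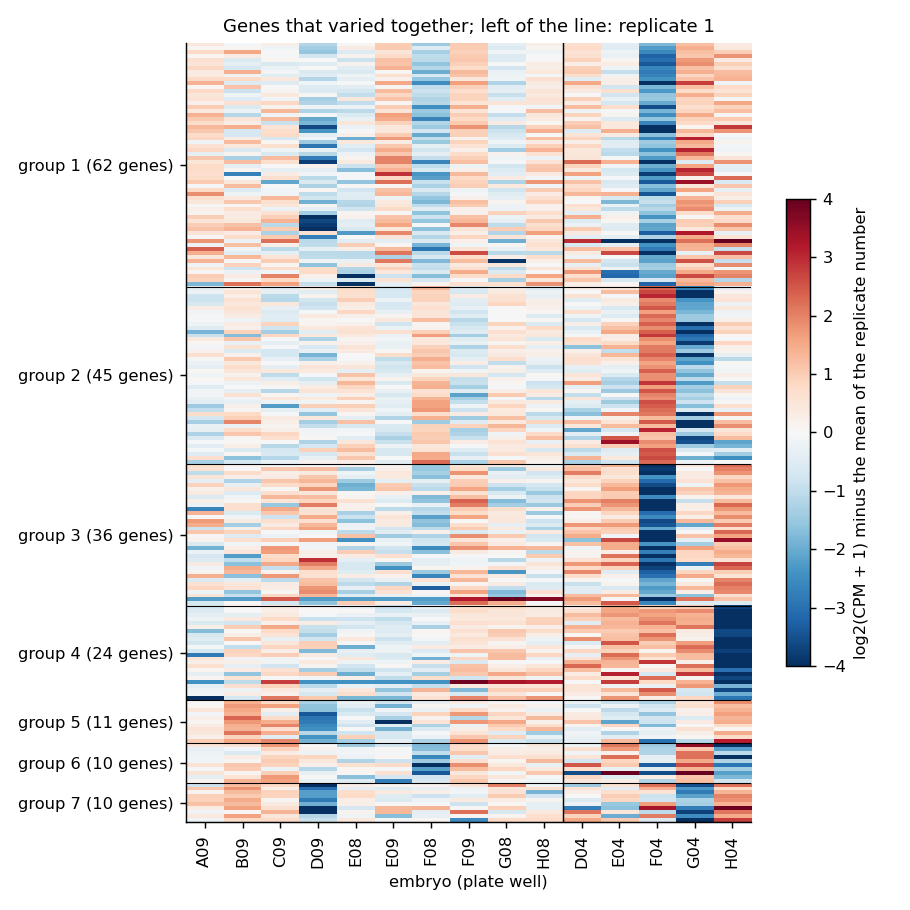
Deviation of log2(CPM + 1) from the mean of the replicate number for 198 genes in 7 groups (rows) and 15 embryos (columns), with blue lower and red higher, colours ending at -4 and 4. F04 is low in groups 1 and 3 and high in group 2, and H04 is low in group 4.

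Group 1 held 62 genes with a median pair r of 0.656, led by Tpd52, Bri3, Rnf138, E330012B07Rik and 5730494M16Rik. It contained 12 oocyte-list genes, among them the 5 Tcl1b genes, Wee2, Zp2, Bmp15 and Omt2b, and also the germ cell genes Dazl, Sycp2 and Sycp3. Its mean was lowest in F04 at -2.41, followed by F08 at -1.24 and D09 at -1.09, and highest in G04 at 1.36. Tpd52 ran from 99.4 CPM in F04 to 807 in G04 with a median of 325. Without F04 at most 30 of the 62 genes stayed together (median pair r 0.507). With every library thinned to 100000 counts at most 27 did (0.563). In IgG embryos the median pair r was 0.241 and in Smarca5 +/+ embryos 0.330.

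Group 2 moved against group 1. Its 45 genes (median pair r 0.663) were led by Impdh1, of guanine nucleotide synthesis, Eif2b3, H2-Ke2, Npl and Jmy, and included Eif3b, Eif3d, Cct4, Srm, Nol6, Phgdh and Dppa2, which serve translation, protein folding, polyamine and serine synthesis, ribosome assembly and genome activation. The mean was lowest in G04 at -2.27 and highest in F04 at 2.11, then in F08 at 0.93. Impdh1 had 6.81 CPM in G04, a median of 71.3 and 251 in F04. Between the means of groups 1 and 2, r was -0.83 over 15 embryos. Leaving out F04 gave -0.70, but the replicate means removed still included F04, so this value is not free of that embryo. Without F04 at most 17 of the 45 genes stayed together (median pair r 0.505), and without F04, G04 and H04 at most 10 did (0.382). In IgG embryos the pairs within group 2 had a median r of 0.527, and in Smarca5 +/+ embryos 0.247.

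Group 3 held many of the 2-cell genes. Of its 36 genes (median pair r 0.653), 8 were on the 2-cell list, namely Zscan4d, Zfp352, Arg2, Gm5662, Gm13078, Gm2016, Tmem92 and B020004J07Rik. It was led by Ercc4, Gm12800, Gm5662, Arg2 and Hbegf, an EGF family ligand, and also held Mycn, Btg2, Gata2, Id2, Ldha and Xist. Its mean was -3.45 in F04 and 1.51 in H04. The group rested on F04, since without that embryo its median pair r was 0.312 and its 36 genes fell in no group of 10 or more. Arg2, a mitochondrial arginase, had 48.2 CPM in F04 and 456 in H04. In IgG embryos the median pair r was 0.356 and in Smarca5 +/+ embryos 0.132.

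Group 4 was 18 X-linked genes of 24 (median pair r 0.788), led by Prdx4, Dkc1, Bcap31, Syap1 and Idh3g. H04 had a mean of -4.37 and the other embryos -0.71 to 1.39. Without H04 the median pair r was 0.317 and at most 4 of the genes stayed together, so this group describes that library. Group 6 was also X-linked in 9 of its 10 genes, led by Xlr4b, Pnma5, Pgrmc1, Phf16 and A830080D01Rik (0.651). Its mean was high in G04 (2.16) and E04 (1.22) and low in H04 (-2.21), F08 (-2.15) and F04 (-1.28), and without H04 its median pair r was 0.615. Pgrmc1, a haem-binding membrane protein, ran from 62.4 CPM in F08 to 998 in G04.

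Group 5 had 11 genes (0.681), with mt-Co3, mt-Atp8 and mt-Atp6 beside the zinc finger genes Zfp758 and Zfp820. It was lowest in D09 at -2.19 and highest in B09 at 1.59, and its mean had r of 0.761 with the mitochondrial share over 15 embryos. Group 7 had 10 genes (0.668), led by Ccnh, Zfp936, Slco4c1, Gm13151 and Zfp534, and was low in D09 at -2.79 and G04 at -2.71 and high in H04 at 1.98. Zfp936 had 25.9 CPM in G04, 36.0 in D09 and 1070 in B09. D09 was the shallowest library. With every library thinned to 100000 counts, the median pair r of group 7 was 0.382 and at most 3 of its 10 genes stayed together, and with total counts only or a pseudocount of 0.1 no 2 of them shared a group of 10 or more genes. Group 5 had 0.514 after thinning, with 6 of 11 genes together. The pairs of groups 4, 5, 6 and 7 had a median r of 0.191, 0.535, 0.369 and 0.438 in IgG embryos and of 0.239, 0.383, 0.200 and 0.250 in Smarca5 +/+ embryos.

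The genes most like Zscan4d over the 15 embryos were Cdh3, a cadherin, with r of 0.885, 4930566F21Rik (0.885), Axin2 (0.883), Gm13109 (0.877), Gm5662 (0.875) and E130308A19Rik (0.874), followed by Hhex, Dnajc10, Cd24a and 8430427H17Rik at 0.845 or above. Without F04 these 10 values fell to between 0.485 and 0.747. In the IgG embryos, Gm13109 (0.736), Cd24a (0.668) and Gm5662 (0.655) kept the highest values of the 10, while Axin2 had -0.175 and 4930566F21Rik -0.117.

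Obox3 had other neighbours. Baz2b, a bromodomain gene, had r of 0.812, 1700010D01Rik 0.811, Utp14b 0.780, BC026590 0.777 and Rps6kb1, the S6 kinase, 0.767, with Slc25a17, Narf, Clcc1, 4933408B17Rik and Pnp at 0.706 or above. Without F04 the 10 values lay between 0.646 and 0.807. In the IgG embryos Narf had the highest value of the 10, 0.497, and Baz2b had -0.144. Each of these correlations was chosen as the highest among 5892 genes.

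The 2 pools of uninjected embryos were compared gene by gene. By edgeR's quasi-likelihood test, 63 genes were higher in replicate 3 (0.601% of 10491) and 6 lower (0.0572%), and 1555 had an unadjusted p under 0.05. Among called genes with an average log2 CPM of 4 or more, the largest rises were Gm4340, with a log2 difference of 5.34 ± 1.04 (SE, adjusted p = 0.0310), Notch1 (4.22 ± 0.76), the heat shock gene Hspa1b (3.68 ± 0.81), Gm11232 (3.59 ± 0.81) and Mycn (3.57 ± 0.59). Notch1 was 54.7 CPM in D04, 107 in E04, 5.02 in F04, 43.6 in G04 and 142 in H04, and 0 to 11.3 in replicate 1. Apart from F04, the embryos of replicate 3 lay above those of replicate 1.

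Mycn, a MYC family transcription factor, was 47.3 CPM in D04, 196 in E04, 1.004 in F04, 77.6 in G04 and 111 in H04, and 0.524 to 13.7 in replicate 1. Of the 25 tested 2-cell genes, 6 rose in replicate 3 and none fell, with a median log2 difference of 1.21, against 0.02 over all genes. By the same limit, the largest falls were Gm15886 (-1.995 ± 0.43), Renbp (-1.59 ± 0.34), Def8 (-1.58 ± 0.37), Sfi1 (-1.56 ± 0.28) and Pld1 (-1.12 ± 0.26). Sfi1, a centrosome protein gene, was 93.2, 274, 196, 80.3 and 147 CPM in D04, E04, F04, G04 and H04, and 341 to 710 in replicate 1, with no overlap.

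These counts depended on single embryos, and the total of 69 ran from 5 to 1133 over the 15 fits that left out 1 embryo. It stayed between 47 and 76 without B09, D09, F09 or G04, and lay between 5 and 40 without any 1 of the other embryos except F04. Without F04, 588 genes were higher and 545 lower, and without H04 5 genes were higher and 0 lower. With DESeq2, 307 were higher and 88 lower. Zscan4d had a log2 difference of 1.81 ± 0.72 (adjusted p = 0.235) and Obox3 of -0.10 ± 0.45 (adjusted p = 0.944), and neither passed the test.

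Of 8 measures per library, none differed between the replicates after adjustment (exact two-sided permutation test, lowest adjusted p = 0.0946), and 4 had an unadjusted p under 0.05. The mitochondrial share was 10.5% ± 3.67 in replicate 1 (SD, n = 10) and 19.04% ± 8.54 in replicate 3 (n = 5), an exact permutation p of 0.0240. The mean log2 level of the 2-cell list was 4.87 ± 0.45 and 5.89 ± 1.28 (exact permutation p = 0.0473), and that of the nucleolar list 7.27 ± 0.29 and 6.71 ± 0.68 (exact permutation p = 0.0473). The log10 of total counts was 6.19 ± 0.23 and 5.92 ± 0.04 (exact permutation p = 0.0366).

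Over the 15 embryos, 8 relations between such measures were computed. By mean log2 level, the 2-cell list fell as the ribosomal protein list rose, with r of -0.778 (permutation p = 0.00064, adjusted 0.00324) and rho of -0.771 (p = 0.00115 by permutation, adjusted 0.0092). Without F04 and G04, the farthest from the median, r was -0.738, and within replicate 1 it was -0.606 (permutation p = 0.0635, n = 10). A mean log2 level weighs each gene alike and can differ from the share of counts. F04 had the lowest 2-cell mean, 3.79, but 0.242% of its counts on the list, against a median of 0.2505%. Obox6 of the list was highest in F04, at 974 CPM.

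The 2-cell list rose with the number of genes detected in 100000 counts, with r of 0.726 (permutation p = 0.00081, adjusted 0.00324) and rho of 0.679 (p = 0.00675 by permutation, adjusted 0.018), and r was 0.531 without E04 and F04. It rose with the mitochondrial share, with r of 0.708 (permutation p = 0.0032, adjusted 0.00853) and rho of 0.693 (p = 0.00556 by permutation, adjusted 0.018), and r was 0.493 without H04 and G04. Within replicate 1 these were 0.251 (permutation p = 0.487) and 0.248 (permutation p = 0.491), so neither passed within the pool of 10 embryos. As deviations from the replicate mean over all 15 embryos, an alternative chosen after the data had been seen, r was 0.696 with detected genes (permutation, adjusted p = 0.037) and 0.568 with the mitochondrial share (permutation, adjusted p = 0.0481), and both passed. The other 5 relations did not pass, with r between -0.502 and 0.426 over all embryos and between -0.399 and 0.642 within replicate 1. As deviations from the replicate mean, 2 of them passed, the 2-cell list with the oocyte list (r = 0.705, permutation, adjusted p = 0.0211) and the oocyte list with detected genes (r = 0.602, permutation, adjusted p = 0.0481). The one with the lowest p was of the 2-cell list with log10 total counts (r = -0.502, rho = -0.571, permutation p = 0.0554 and 0.028, adjusted 0.111 and 0.056, -0.606 without D09 and D04, -0.399 within replicate 1).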

How the data were processed

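Per the submitters' processing notes, reads were trimmed with Trim Galore 0.6.5 and cutadapt 2.3 and aligned to GRCm38 with HISAT2 2.1.0. The authors deposited raw counts per gene, and the annotation release, use of strand, shared reads and duplicates are not given in the sources used here. The table's 25965 lines held 25900 genes after lines of 57 repeated identifiers were summed, and exon lengths were found for 24987. Low odd counts outnumbered even ones (18064 counts of 1 against 3804 of 2), so halved counts were tried as an alternative. Total counts per library limit the precision, and 3 counts were taken as the limit that a count of 0 allows.

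Members, gene lists and tests were chosen with earlier results of these data known. Spread was tested with edgeR 4.0.16 (R 4.3.3) as the deviance around the replicate mean against the dispersion trend after filterByExpr and TMM scaling, and replicates with its quasi-likelihood test, both with Benjamini-Hochberg adjustment at 0.05. In simulated data for the spread (10117 genes), 63% of genes with 4 times the trend dispersion and 98% with 8 times were found, with 0.101% of unchanged genes called. For the replicate comparison (10061 genes), 95% of 4-fold and 100% of 8-fold changes were found in simulated data, with 0.122% of unchanged genes called. These rates describe simulated data and may not hold for the embryos, where calls between replicates depended on single libraries. By the quasi-likelihood test 69 genes passed. Some differences above 4-fold did not, as for Apoe (log2 4.09, adjusted p = 0.0538), Cd24a (2.17, 0.145) and Plagl1 (2.12, 0.307).

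Library measures were means of log2(CPM + 1) over lists, with a pseudocount of 1, or shares, and detected genes were counted after thinning to 100000 counts. Relations used 100000 permutations (scipy 1.17.1), and the replicate comparison of measures an exact permutation test. The text names Zscan4d, Obox3, the 20 most abundant genes by CPM and by TPM, the 20 of highest deviance with average log2 CPM of at least 5, the 10 of lowest dispersion with at least 8, 5 leaders of each group, the 5 largest rises and falls between replicates with average log2 CPM of at least 4, 10 genes most like each marker and up to 4 called members of each list. Other genes were named after their values were seen. Alternatives without F04, G04 and H04 together, co-variation without single wells, and deviations from the replicate mean were chosen after seeing the data. The uninjected library under 100000 counts entered no test.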

Additional observations from a re-analysis of the deposited data

Results flagged for a closer look

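In 74 groups of 4 to 10 values, 11 had an extreme value with a gap to its neighbour above Dixon's limit. Chance gives about 1 in 20 for values not chosen by their spread, a rate that does not apply to the genes and gene groups here, which were. In replicate 1, D09 had the lowest log10 total counts, 5.56, and the lowest mean of group 7, -2.79. F08 stood low in the mean of X-linked group 6 at -2.15 and in 2 of its members, Mum1l1 at 1.91 and Gm9 at 0 on the log2(CPM + 1) scale. In replicate 3, F04 stood low in the oocyte list at 4.57 on the log2 scale, in group 3 at -3.45, in Tex101 at 0 and in Zscan4d at 0, and high in the nucleolar list at 7.90. H04 stood low in group 4 at -4.37.

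The uninjected library D08, with 89203 counts, was left out of the tests for its depth. With 95% Wilson intervals up to 0.417 percentage points wide, it held 21 counts of Xist and 0 over the Y genes, with 3.75% of its counts on the X, 11.4% mitochondrial mRNA, 2.23% on the oocyte list and 0.297% on the 2-cell list. Wells without an embryo held 453 to 1875 counts, but they were sequenced with the maternal deletion libraries and not with the uninjected ones.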

How the results depend on the processing

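The 557 varying genes (88 X-linked, 15 of the 2-cell list, 14 of the oocyte list) became 298 without F04, G04 and H04, with 8 of the 2-cell list, and 150 by DESeq2 dispersion outliers, with 39, 9 and 5 on those lists. Without the replicate block 680 genes were called, 489 of them among the 557. The replicates are pools and their numbers pair no embryos. Leaving out 1 embryo or replicate gave 108 to 547 genes, with 24 to 106, 7 to 15 and 5 to 16, and without a filter on low counts 9 oocyte genes were called. With total counts only, 57 X genes varied in IgG embryos.

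The 69 genes of the replicate comparison (63 higher, 6 lower, 6 of the 2-cell list higher) became 26 (21 higher, 2 of the list) with total counts only, 815 (729, 86, 10) with no filter, 126 (113, 13) with counts halved, 330 (213, 117, 10) without F04, G04 and H04, and 395 (307, 88) with DESeq2. With a minimum depth of 500000, 3 genes of the list were higher. Leaving out 1 embryo gave 5 to 1133 in all, 5 to 588 higher, 0 to 545 lower and 0 to 11 of the list, so this comparison rests on which embryos enter it. The cause was not tested.

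For the measures, leaving out 1 embryo gave differences of -0.34 to -0.25 in log10 total counts, 4.05 to 454.8 in detected genes, 5.73 to 11.2 in mitochondrial share, -0.53 to 0.0794 in X share, -0.56 to -0.0911 in the ribosomal list, -0.54 to -0.08 in the oocyte list, 0.75 to 1.55 in the 2-cell list and -0.85 to -0.44 in the nucleolar list. At a minimum depth of 500000 the log10 total counts differed by -0.34 (exact permutation, adjusted p = 0.00799), and without F04, G04 and H04 the X share by 0.0326 percentage points.

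Within replicate 1 the 2-cell list had r of 0.251 with detected genes, 0.248 with the mitochondrial share and -0.606 with the ribosomal list. Thinned libraries gave -0.574 with log10 total counts. Deviations from the replicate mean gave 0.705 with the oocyte list, and 0.602 for the oocyte list with detected genes, and both then passed. The mitochondrial relation was 0.456 without F04, G04 and H04, and that of the oocyte list -0.0525 with total counts only. Leaving out 1 embryo gave -0.629 to -0.453 for log10 total counts, 0.552 to 0.816 for the mitochondrial share, and 0.153 to 0.722 for the oocyte list with detected genes. At r of 0.7, 114 genes lay in groups. Depth limits rare genes most in D09, where 3 counts are 8.21 CPM.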
